A study of Mus musculus with 16 samples.

Results

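The respiratory chain genes were taken as the genes whose symbol begins with mt-, Nduf, Cox4 to Cox8, Uqcr or Atp5, or is Sdha, Sdhb, Sdhc or Sdhd. Of 30286 gene symbols 112 matched, and 103 of these were at 1 TPM or more in at least 1 of 4 groups, as were 15218 symbols of the whole table. TPM values scale read counts by transcript length and by sequencing depth. The 103 members comprised 13 mitochondrially encoded and 90 nuclear genes. The nuclear genes were 80 structural subunits of complexes I to V, the 8 complex I assembly factors Ndufaf1 to Ndufaf8, Atp5s, a factor named after the ATP synthase, and the pseudogene Atp5l-ps1. The 9 genes under the limit were 6 pseudogenes and the isoforms Cox7b2, Cox8b and Cox8c, of which Cox8b came nearest with 0.74 TPM in its highest group. Just inside the limit were Cox6a2, which passed only through KO mesenchyme (1.2 TPM), and Atp5l-ps1, which passed only through WT mesenchyme (1.36 TPM).

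RNA came from the facial prominences of C57BL/6 mouse embryos at embryonic day 12, from wild-type (WT) embryos and from embryos homozygous for an Esrp1 knockout (KO, Esrp1-/-). ESRP1 is an RNA-binding protein of epithelia that steers alternative splicing. Surface ectoderm and mesenchyme were separated surgically, which gave 4 groups (WT ectoderm, KO ectoderm, WT mesenchyme and KO mesenchyme) with 4 libraries each, 16 in all, every library from a pool of 6 to 7 embryos. The deposited table holds 1 TPM value per group, so no difference below has a replicate check, and values carry neither an error nor a p-value. Values of the 4 groups are given in the order WT ectoderm, KO ectoderm, WT mesenchyme, KO mesenchyme. Log2 ratios were formed after adding 1 to each TPM value, so the ratios of weakly expressed genes are damped, and a difference of 1.5-fold or 1.2-fold is counted on that scale.

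Esrp1 itself was at 170, 62.9, 1.01 and 1 TPM, and the labels do not name the part deleted. The layers were distinct: 8 ectoderm markers (keratins, Cdh1, Epcam and others) added up to 2591, 2022, 15.3 and 15.4 TPM, and 8 mesenchyme markers (Prrx1, Twist1, collagens and others) to 255, 559, 3063 and 2282 TPM. The KO ectoderm also had more of 10 skeletal muscle markers (37.2, 103, 488 and 382 TPM) and of 6 endothelial markers (6.5, 26.7, 205 and 154 TPM). The 7 red blood cell genes added up to 4475, 4729, 19071 and 19474 TPM and 6 neuron genes to 94.95, 120.3, 155 and 245 TPM, with none of these 45 markers at 0 in any group. The part of these cell types in the values below was not tested, and in such tissue pieces fewer cells of a type and less RNA per cell cannot be told apart. Libraries with 2 index barcodes in the labels numbered 1, 2, 0 and 2.

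Mitochondria make ATP by passing electrons from NADH and succinate through complexes I to IV to oxygen, which pumps protons across the inner membrane, and complex V, the ATP synthase, uses their return flow. Mitochondrial DNA is transcribed as long precursors that are cut into single messages, and it encodes core subunits of complexes I, III, IV and V. All other subunits, and the whole of complex II, are made from nuclear genes and imported, so each mixed complex needs products of both genomes. Growing embryonic tissues make ATP by glycolysis as well as by respiration.

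Several mitochondrial genes have a near-perfect nuclear copy, so their sequences come before their values. A block on chromosome 1 (chr1:24611535-24616197, minus strand, GRCm38, 4663 bases) holds unprocessed pseudogenes of 7 mitochondrial genes, in their order in mitochondrial DNA. For mt-Atp8, which lies between mt-Co2 and mt-Atp6 there, no copy was listed, so the sums with copies below leave mt-Atp8 unchanged. Gm28661 was identical to mt-Co2 over 681 bases, Gm10925 to mt-Atp6 over 678, Gm28437 to mt-Co3 over 783, Gm10222 to mt-Nd4l over 294 and Gm28439 to mt-Nd4 over 876 bases. Reads from within these stretches cannot be assigned by their sequence, and how the deposited values divide them is not given in the sources used here. Gm28438 differed from mt-Nd3 by 1 substitution in 345 bases (T3C, the mitochondrial base first, counted from the gene's first base). Gm29216 matched bases 1054 to 1545 of mt-Co1 with 6 substitutions (T1056A, C1057T, A1059G, A1060G, C1062A and A1066T). The first 60 bases of these imperfect pairs are shown because all the differences lie there, and capitals mark the differing bases.
mt-Co1 (chrM:6381-6440, plus strand): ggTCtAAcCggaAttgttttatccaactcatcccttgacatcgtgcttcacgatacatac
Gm29216 (chr1:24616138-24616197, minus strand): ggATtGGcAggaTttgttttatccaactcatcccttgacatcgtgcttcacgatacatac
mt-Nd3 (chrM:9459-9518, plus strand): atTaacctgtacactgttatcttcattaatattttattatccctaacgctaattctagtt
Gm28438 (chr1:24613060-24613119, minus strand): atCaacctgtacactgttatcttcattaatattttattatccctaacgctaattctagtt

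The genes mt-Atp8 and mt-Atp6 share 43 bases in different reading frames, shown here with the start codon of mt-Atp6 in capitals because the shared stretch is a large part of the short mt-Atp8.
mt-Atp8 and mt-Atp6 (chrM:7927-7969, plus strand): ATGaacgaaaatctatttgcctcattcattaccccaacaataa
With 204 bases mt-Atp8 is the shortest member, and a TPM value, which divides by length, rests there on the fewest positions. Smaller overlaps of 7 bases join mt-Nd4l with mt-Nd4 and of 14 bases mt-Nd5 with mt-Nd6, which lies on the opposite strand to the other 12 genes.

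The 13 mitochondrial genes outweighed the 90 nuclear ones in every group. They made up 7.99%, 7.41%, 7.19% and 9.59% of all TPM, against 2.19%, 2.18%, 2.14% and 2.18% for the nuclear members, so that the ratio of the sums was 3.65, 3.4, 3.35 and 4.396. The nuclear share was nearly level over the 4 groups, and the mitochondrial share was highest in KO mesenchyme. All TPM here means the column sums, which were 917993, 955495, 969156 and 977371 and so not equal between the groups. The log2 ratios of the deposited values were formed without making these totals equal. The median mitochondrial gene stood at 4682, 4917, 4330.4 and 5645 TPM and the median nuclear member at 169.5, 174.5, 179.4 and 179.0 TPM.

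Among the mitochondrial genes the levels, which are per length, followed a similar order in each group. The complex V gene mt-Atp8, for a small membrane subunit, was highest at 14051, 13985, 11187 and 19491 TPM, and mt-Atp6, for the subunit that forms the proton channel beside the c ring, was at 7025, 5396, 6995 and 8989.8 TPM. The catalytic cytochrome oxidase subunits of complex IV were at 9191, 9299, 8706 and 12664 TPM for mt-Co1 and at 8155, 6721, 8222 and 7636 TPM for mt-Co2. For mt-Co3, the third core subunit, the values were 9187, 9196, 10024 and 13417 TPM. KO mesenchyme was the highest group for 4 of these 5 genes. The exception was mt-Co2, whose values in WT ectoderm and WT mesenchyme lay above both KO values, and KO ectoderm was the lowest group for mt-Co2 and mt-Atp6.

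Cytochrome b of complex III (mt-Cytb) was at 5993, 6163, 5694 and 6777 TPM. The membrane arm of complex I is built on 7 mitochondrial subunits. Their genes ranged from mt-Nd1 (4682, 4917, 4330.4 and 5645 TPM) down to mt-Nd5 (1068, 1079, 1244 and 1599 TPM). Between them lay mt-Nd4l at 4245, 4201, 3861 and 4735 TPM, mt-Nd4 at 3194, 3172, 2949 and 3974 TPM and mt-Nd3 at 2725, 2609, 2467 and 3761 TPM. The remaining members of the arm were mt-Nd2 at 2552, 2755, 2404 and 2999 TPM and mt-Nd6 at 1271, 1293, 1564 and 2040.5 TPM. All 8 of these genes had their highest value in KO mesenchyme. Both mt-Nd5 and mt-Nd6 were lowest in the ectoderm groups, and the other 6 were lowest in WT mesenchyme.

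**Figure D1:**
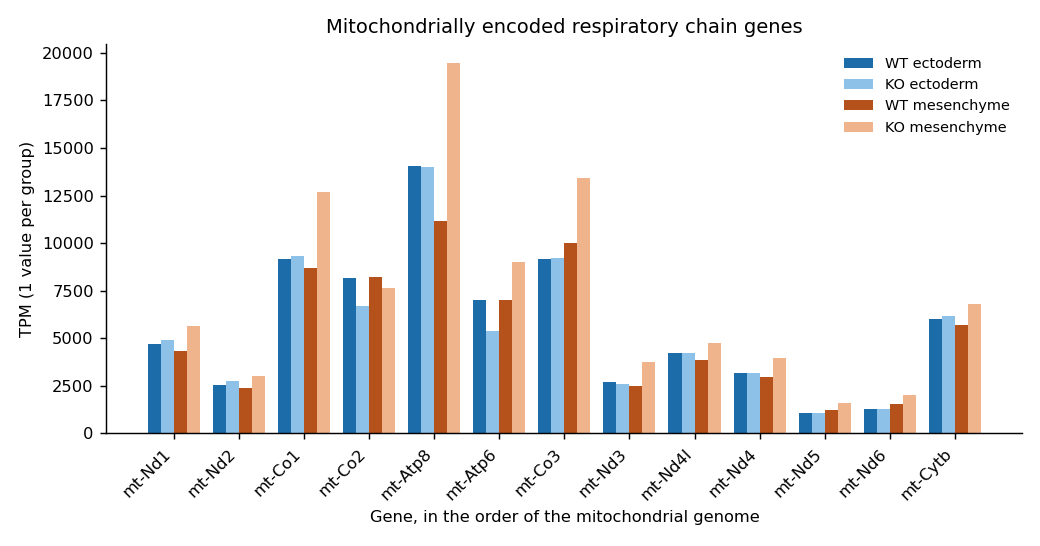
TPM (1 value per group, bars from 0) of the 13 mitochondrially encoded genes in genome order, with a bar for each of the 4 groups. KO mesenchyme is the highest bar for every gene but mt-Co2, and mt-Atp8 reaches 19491 TPM there.

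The chromosome 1 copies carried a sizeable part of the values. Of the 7 copies, Gm10222 and Gm28439 were listed at 0 in all groups, and the other 5 added up to 13106, 17893, 8632 and 20077 TPM, or 1.43%, 1.87%, 0.891% and 2.05% of all TPM. Gm28661 took 32.8, 46.6, 21.9 and 41.9% of its sum with mt-Co2, and Gm10925 took 35, 51.9, 23.7 and 36.1% of its sum with mt-Atp6. Of the sum with mt-Nd3, Gm28438 took 20, 27.4, 14.4 and 21.4%. Gm28437 took 8.61, 12.6, 3.72 and 12.3% of its sum with mt-Co3. Gm29216, which covers only the end of the gene, was at 3789, 3892, 3349 and 6569 TPM beside mt-Co1, or 29.2, 29.5, 27.8 and 34.2% of their sum. TPM is per length, and Gm29216 has 492 bases against 1545 for mt-Co1. Its share of the pair's reads is therefore smaller than these shares of summed TPM. In all 5 pairs the copy's share was higher in KO than in WT in both layers, for Gm29216 only slightly in ectoderm. It was lowest in WT mesenchyme in each pair. On chromosome 2, Gm13340 held 45.2% of the 31-base words of mt-Co1 and was at 5.01, 6.45, 3.51 and 5.85 TPM, and Gm13341 held 47.1% of those of mt-Co2 and was at 2.23, 2.33, 1.5 and 2.66 TPM. These values were not added to the sums below.

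With the copies added, mt-Co2 and mt-Atp6 came closer to the other mitochondrial genes. Summed with Gm28661, mt-Co2 was at 12142, 12589, 10526 and 13147 TPM, and its log2 ratio of KO to WT went from -0.28 to 0.05 in ectoderm and from -0.11 to 0.32 in mesenchyme. Summed with Gm10925, mt-Atp6 was at 10811, 11214, 9171 and 14071 TPM, and the ratio went from -0.38 to 0.05 in ectoderm and from 0.36 to 0.62 in mesenchyme. With the copies added, all 13 genes were higher in KO than in WT mesenchyme, 4 of them by 1.5-fold or more, and none was 1.2-fold apart in ectoderm. Among the 4 was mt-Co1, at 0.67 with Gm29216 and 0.54 alone. The mitochondrial share of all TPM with the copies was 9.42%, 9.28%, 8.08% and 11.6%. In the mt-Co1 sum and in these shares the short Gm29216 weighs more than its reads would.

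**Figure D2:**
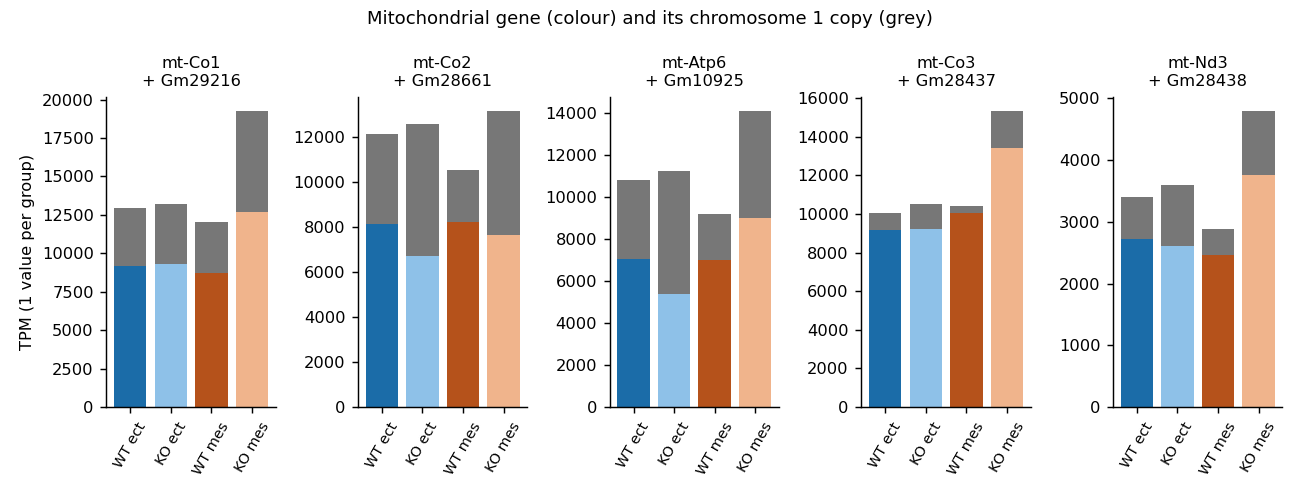
TPM (bars from 0, a separate vertical scale per gene) of the 5 mitochondrial genes whose chromosome 1 copy had a value above 0, with the gene in colour and the copy stacked on it in grey. The grey part of mt-Atp6 takes 51.9% of the sum in KO ectoderm and 23.7% in WT mesenchyme, while the whole bars of both ectoderm groups are nearly level.

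Between KO and WT mesenchyme the mitochondrial genes were higher and the nuclear members were split. The median log2 ratio of the 13 mitochondrial genes was 0.38 (12 above 0, and mt-Co2 below at -0.11), that of the 90 nuclear members 0.06 (50 above 0 and 40 below), and that of all 15218 genes -0.11 (37.6% above 0). The mitochondrial direction depends on the scaling: 7 genes were above 0 and 3 below after quantile normalization, 10 and 3 after the GC trend described below was subtracted, and 5 and 8 after trends of GC content and length were. At 1.5-fold, 2 mitochondrial genes were higher, mt-Atp8 (0.80) and mt-Nd3 (0.61), and none was lower, where 2.53% of all genes were higher and 12.5% lower. At 1.2-fold, 11 of the 13 were higher and none lower, against 12.1% and 34.0% of all genes. Of the nuclear members none was 1.5-fold higher and 3 were lower, and at 1.2-fold 8 were higher and 14 lower. The nuclear counts of lower genes, 3 and 14 of 90, are below the shares of all genes.

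The nuclear members that were lower came from each complex. Uqcrc1, a core subunit of complex III on chromosome 9 (108936633 to 108949623), had the lowest ratio, at 217, 208, 225 and 127 TPM in the 4 groups and -0.82 in mesenchyme. Atp5d, the delta subunit of the F1 head on chromosome 10 (80138632 to 80145818), was at 228, 249.5, 209 and 137 TPM (-0.61). Cbarp, which overlaps Atp5d on the opposite strand, was at 30.3, 39.9, 18.2 and 10.3 TPM, and the strandedness of the libraries is not given in the sources used here. The complex I accessory subunit Ndufb8 (248, 249.5, 275 and 189 TPM) had a ratio of -0.54, and the membrane anchor Sdhc of complex II (123, 121, 129 and 90 TPM) one of -0.51. In each of these 4 genes KO mesenchyme was the lowest group, and the 3 other groups lay closer together. Cox4i2, an isoform of a complex IV subunit, followed at -0.46. The third gene past 1.5-fold was the pseudogene Atp5l-ps1, at 0.08, 0.52, 1.36 and 0.47 TPM. It passed the 1 TPM limit only through WT mesenchyme, so its direction here is set in part by that limit.

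Nuclear members with the highest ratios stayed below 1.5-fold. They were the complex I assembly factor Ndufaf2 (50.7, 52.7, 54.8 and 71.2 TPM, log2 ratio 0.37 in mesenchyme), the complex I accessory subunit Ndufc2 (127, 149, 147 and 189 TPM, 0.36), the hinge subunit Uqcrh of complex III (668, 674, 589.8 and 753 TPM, 0.35), the g subunit Atp5l of complex V (493, 539, 473 and 603 TPM, 0.35) and Cox6c of complex IV (502, 533, 474 and 586 TPM, 0.30). KO mesenchyme was the highest group for all 5.

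Complex V subunits went both ways in KO against WT mesenchyme. Of 5 F1 head subunits 4 were lower, with a median log2 ratio of -0.29, and of 7 stalk and membrane subunits 6 were higher, with a median of 0.23, where 37.6% of all genes were above 0. The 3 genes of the membrane c ring had a median of -0.30, with Atp5g1 (-0.30) and Atp5g3 (-0.34) lower and Atp5g2 (0.25) higher. The catalytic beta subunit Atp5b, the most abundant nuclear member, was at 1187, 1132, 1123 and 898 TPM, and the alpha subunit Atp5a1 at 699, 708, 710.1 and 582 TPM. The epsilon subunit Atp5e was at 600.1, 619.8, 623 and 547 TPM, and Atp5c1, the gamma subunit that turns within the head, was the exception at 327, 339, 345 and 406 TPM. Among the stalk and membrane subunits Atp5h was at 534, 521, 546 and 648 TPM, Atp5k at 473, 473, 461 and 565 TPM and Atp5o at 479.9, 479.6, 507 and 566 TPM, while Atp5j was level at 387, 386, 397 and 383 TPM. With the GC trend subtracted the F1 median was -0.03, with 2 of 5 above 0, the stalk and membrane median 0.40, with 7 of 7, and the c ring median -0.11, with 1 of 3. The single ratios were then -0.10 for Atp5b, -0.03 for Atp5a1 and 0.64 for Atp5k.

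The other complexes were mixed. In complex I, 23 of 36 nuclear subunits were above 0 in KO against WT mesenchyme, with a median of 0.06. Its 7 nuclear core subunits, which carry the electron path, had 3 above 0 and a median of -0.12 (7 above 0 and 0.24 with the GC trend subtracted), with Ndufs3 (168, 161, 179.6 and 147 TPM) lowest and Ndufv2 (160.1, 156, 170.5 and 192 TPM) highest. Of 8 complex III subunits 5 were above 0 (median 0.07), and Uqcrfs1, the Rieske iron-sulfur protein, was at 104, 106, 96.96 and 78.7 TPM. Complex IV had 9 of 17 above 0 (median 0.08), and complex II 2 of 4 (median -0.07). The 8 complex I assembly factors, whose median level was 20.9, 22.3, 21.8 and 22.2 TPM, had 3 above 0 and a median of -0.04. Ndufaf2 was the highest of them in all groups, and Ndufaf3 was at 16.03, 15.8, 20.8 and 22.9 TPM. Ndufaf6 was at 16.8, 17.4, 18.7 and 16.2 TPM and Ndufaf8 at 18.1, 22.1, 18.7 and 21.3 TPM.

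**Figure D3:**
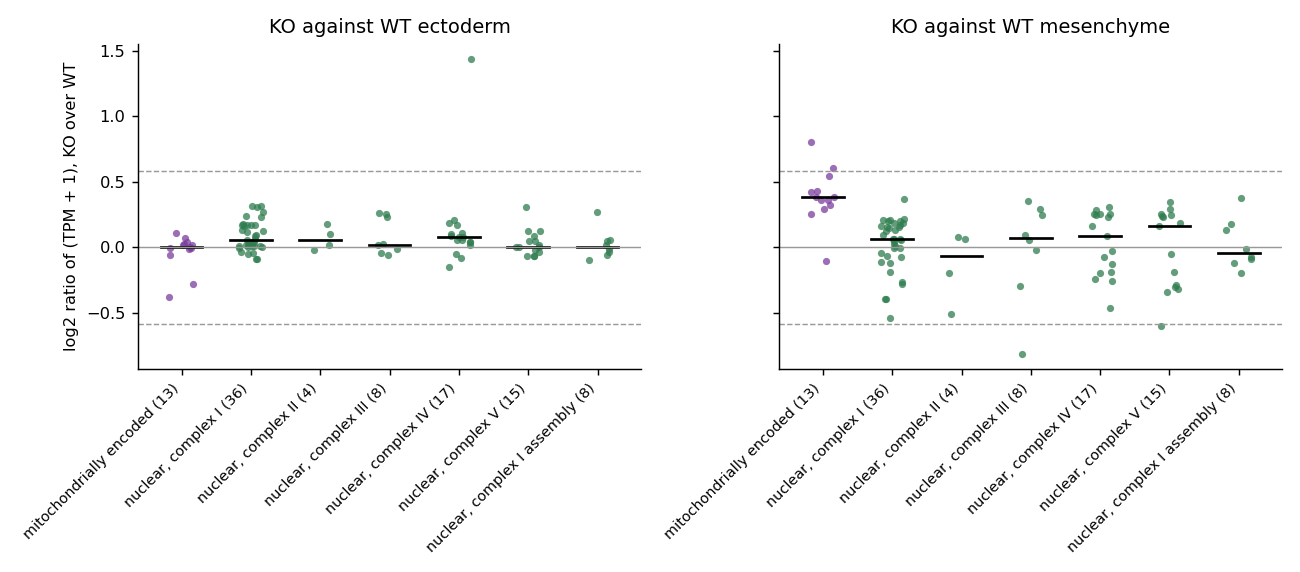
Log2 ratio of (TPM + 1), KO over WT, for ectoderm (left) and mesenchyme (right), with a point per gene, a black line at the median of each class, and dashed lines at 1.5-fold. Atp5s and Atp5l-ps1 are not drawn. The mitochondrially encoded class has its median at 0.00 in ectoderm and 0.38 in mesenchyme, and the point at 1.44 in ectoderm is Ndufa4l2.

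The mitochondrial and nuclear members differed in base composition, and the KO to WT ratio in mesenchyme moved with it. Transcript GC content had a median of 37.1% in the 13 mitochondrial genes (31.9% to 41.1%), 52.0% in the 90 nuclear members (42.0% to 61.1%) and 50.8% in the 11052 genes whose mean over the groups reached 5 TPM. Across those 11052 genes the log2 ratio of KO to WT mesenchyme had a Pearson correlation of -0.58 with GC content, and in ectoderm of 0.22. Within the nuclear members the values were -0.32 and 0.39, and within the 13 mitochondrial genes -0.57 and 0.01. The points of each correlation are genes read from the same libraries, so it is a description only.

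Subtracting the smoothed GC trend of all genes moved both classes in mesenchyme. The median of the mitochondrial genes went from 0.38 to 0.09, with 10 above 0 and none 1.5-fold apart, and that of the nuclear members from 0.06 to 0.26, with 69 above 0. After the subtraction 5 nuclear members were at least 1.5-fold higher (Ndufaf8 at 0.70, Atp5g2 at 0.69, Ndufa11 at 0.67, Atp5k at 0.64 and Ndufa13 at 0.59) and 1, Atp5l-ps1, was lower. Of all 15096 genes with a GC value, 8437 were then above 0, 734 at least 1.5-fold higher and 367 lower. When trends of GC content and length were both subtracted, 0 nuclear members were 1.5-fold higher and 1 lower. Ndufa11 and Ndufaf8 were named after their values were seen. Through the GC trend alone, the difference between the medians (mitochondrial minus nuclear) went from 0.33 to -0.18. For single genes, mt-Atp8 went from 0.80 to 0.35, mt-Co1 from 0.54 to 0.32, Uqcrc1 from -0.82 to -0.38 and Atp5d from -0.61 to -0.06. Only 604 of the 11052 genes had a GC content at or below that of the richest mitochondrial gene, so the trend rests on few genes there. Among the nuclear members the 30 with the lowest GC content had a median ratio of 0.16 and the 30 with the highest -0.05. After the subtraction these were 0.14 and 0.43. Whether the GC trend is technical or biological was not tested.

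**Figure D4:**
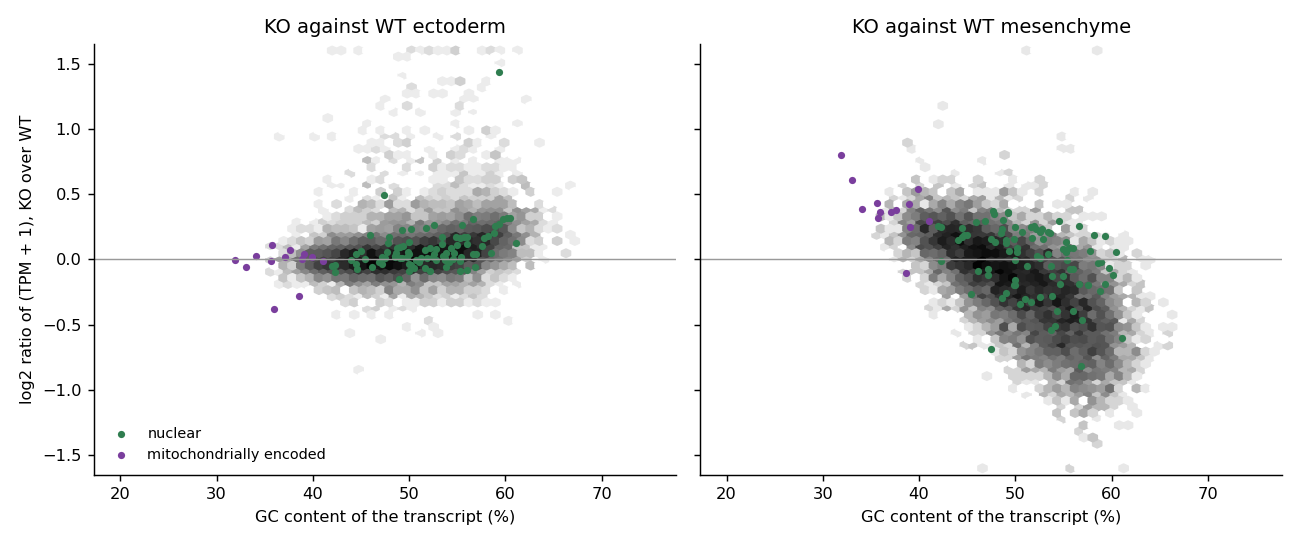
Log2 ratio of (TPM + 1), KO over WT, against transcript GC content (%) in ectoderm and mesenchyme, with nuclear members in green, mitochondrial genes in purple and all genes averaging 5 TPM or more as grey density, darker for more genes on a log scale. Grey values beyond the axis are drawn at its edge. In mesenchyme the density slopes down with GC content and most mitochondrial genes lie along its upper left end.

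In ectoderm the respiratory chain differed little between KO and WT. The median log2 ratio was 0.00 for the mitochondrial genes (7 above 0 and 6 below) and 0.04 for the nuclear members (63 above and 27 below, or 70.0% above), beside 0.06 for all genes (65.5% above), so the split of the nuclear members was near that of all genes. This split depends on the scaling: with the genes other than the mitochondrial ones set to equal totals, 37 nuclear members were above 0 and 53 below, and 2 mitochondrial genes above and 11 below. The split of all genes moved too, to 7535 of 15200 above 0 and 7657 below. One nuclear member, Ndufa4l2, was 1.5-fold higher and none lower, where 5.13% of all genes were higher and 0.467% lower. At 1.2-fold, 9 nuclear members were higher and none lower, against 17.6% and 3.04% of all genes. The 2 mitochondrial genes that were 1.2-fold lower were mt-Co2 and mt-Atp6, whose chromosome 1 copies were higher in KO ectoderm.

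Ndufa4l2 encodes a relative of the complex IV subunit Ndufa4 that is known as a target of hypoxia signalling. It was at 3.1, 10.1, 0.45 and 0.27 TPM, so that KO ectoderm was highest, WT ectoderm intermediate and both mesenchyme groups below 1 TPM. Its log2 ratio was 1.44 in ectoderm and 1.27 after the GC trend was subtracted. Shmt2, which overlaps its end by 32 bases on the opposite strand, was at 64.6, 76.98, 65.3 and 33.8 TPM.

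The next highest ratios in ectoderm were those of Ndufs7, a core iron-sulfur subunit of complex I (84.6 and 106 TPM in WT and KO, 0.32), the accessory subunits Ndufa13 (64.2 and 80.1 TPM, 0.31) and Ndufb7 (138 and 170.3 TPM, 0.31) and Atp5g2, 1 of 3 genes for the same c subunit (335 and 415 TPM, 0.31). Of these, Ndufs7, Ndufa13 and Ndufb7 had transcripts of 59.7% to 60.4% GC, and their GC-adjusted ratios were 0.13, 0.12 and 0.13. The lowest ratio was -0.15, for Cox5a of complex IV (237 and 213 TPM). It was followed by Ndufaf4 (-0.10), Atp5s (-0.09), Ndufb4 (-0.09) and Ndufa10 (-0.09), all close to level. By complex the nuclear medians in ectoderm lay between 0.00 and 0.08, with 28 of 36 complex I subunits, 14 of 17 of complex IV and 8 of 15 of complex V above 0, where 65.5% of all genes were.

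The KO effects of the layers were also set against each other, as ectoderm minus mesenchyme on the log2 scale. On the scale of the deposited TPM all 13 mitochondrial genes were below 0, with a median of -0.36, while the nuclear members had a median of 0.06 (53 above 0) and all genes one of 0.19 (66.7% above 0). The genes farthest below were mt-Atp8 and mt-Atp6, at -0.81 and -0.74. Scaling moved these values: with the GC trend subtracted 4 mitochondrial genes were above 0 and 9 below, with a median of -0.09, and 20 nuclear members above and 70 below, with a median of -0.24. Of all 15096 genes with a GC value, 7298 were then above 0 and 7798 below, with a median of -0.01. After quantile normalization 3 mitochondrial genes were above 0 and 8 below, and with trends of GC content and length subtracted 6 and 7. With equal totals of the non-mitochondrial genes all 13 were below 0, and 39 nuclear members were above and 51 below, beside 9048 above and 6152 below of 15200 genes. With the chromosome 1 copies added all 13 were below 0 as well, and mt-Atp8 was the lowest. This difference could not be tested with 1 value per group.

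Between the WT layers the nuclear members were split much as all genes were. In ectoderm against mesenchyme their median log2 ratio was -0.07 (31 above 0 and 59 below, or 34.4% above), beside -0.15 for all genes (37.4% above). The median of the mitochondrial genes was 0.08 (9 above). With the genes other than the mitochondrial ones set to equal totals, 50 nuclear members were above 0 and 40 below, beside 6749 above and 8447 below of 15200 genes. At 1.5-fold, 2 nuclear members were higher in ectoderm (Ndufa4l2 and Cox4i2) and 2 lower (Cox6a2 and Atp5l-ps1), where 11.1% of all genes were higher and 21.8% lower. Atp5l-ps1 and Cox6a2 passed the 1 TPM limit only through a mesenchyme group and Ndufa4l2 only through ectoderm groups, so their directions are a description. Over genes averaging 5 TPM or more, 1 nuclear member was higher and 0 lower. At 1.2-fold, 6 were higher and 21 lower, against 20.2% and 40.4% of all genes, and of the mitochondrial genes 1 was higher (mt-Atp8) and 1 lower (mt-Nd6).

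The subunits where electrons enter the chain are given next, against a background of 37.4% of all genes above 0. On the deposited scale all 7 nuclear core subunits of complex I were lower in WT ectoderm, with a median of -0.26, from Ndufs1 (98.7, 95.8, 101 and 107 TPM) to Ndufs8 (91.4, 103, 120.2 and 125 TPM). With the totals of the non-mitochondrial genes made equal 5 of these 7 were lower, and with the GC trend subtracted 4, with a median of -0.02. All 4 subunits of complex II, which also works in the citric acid cycle, were lower as well, with a median of -0.34, and under either of those scalings 3 of 4. The flavoprotein Sdha was at 141, 142, 178 and 155 TPM, the iron-sulfur subunit Sdhb at 135, 152, 179 and 189 TPM and the anchor Sdhd at 121, 129, 153 and 160.0 TPM. Among the accessory subunits of complex I, 23 of 29 were lower (18 with equal totals, and 14 with the GC trend subtracted, when 15 were higher), led by Ndufa8 (90.5, 96.1, 128 and 97.3 TPM, -0.50) and Ndufv3 (114, 128, 157 and 149 TPM, -0.45). Ndufs6 (179, 184, 147 and 148 TPM) and the assembly factor Ndufaf4 (27.7, 25.8, 22.7 and 22.5 TPM) were higher in ectoderm. In complexes III and IV the medians were both above 0, at 0.07 and 0.06, and in complex V -0.03. After the GC trend was subtracted the nuclear median was 0.08, with 57 members above 0.

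Between the KO layers the mitochondrial genes were lower in ectoderm. All 13 were lower in KO ectoderm than in KO mesenchyme, with a median of -0.45, and mt-Atp6 (-0.74) and mt-Nd6 (-0.66) by more than 1.5-fold. With the chromosome 1 copies added the median was -0.33 and mt-Nd6 alone passed 1.5-fold. The GC trend took the median to -0.13, with 5 genes above 0 and 8 below, and after quantile normalization 5 were above and 6 below. Of the nuclear members 4 were 1.5-fold higher in KO ectoderm (Ndufa4l2, Cox4i2, Atp5d and Uqcrc1) and 1 lower (Cox6a2), where 17.7% of all genes were higher and 14.0% lower. Cox6a2 passed the 1 TPM limit only through KO mesenchyme, and Ndufa4l2 only through ectoderm groups. With the GC trend subtracted Atp5d (0.41) and Uqcrc1 (0.43) were below 1.5-fold, and 2 nuclear members were higher and 4 lower (Cox6a2, Ndufaf3, Ndufs8 and Ndufa13). Of all 15096 genes with a GC value, 2098 were then higher and 2383 lower, so both nuclear counts were below the shares of all genes. On the deposited scale the nuclear median was -0.11 and that of all genes -0.01. Uqcr11, a small complex III subunit at 263, 314, 224 and 221 TPM, followed at 0.51, and Ndufaf3 (16.03, 15.8, 20.8 and 22.9 TPM), Ndufa3 (359, 366, 432 and 498 TPM) and Ndufa5 (119.8, 119, 139.8 and 162 TPM) were lowest among nuclear members averaging 5 TPM or more. The KO groups enter this comparison and the KO to WT ones alike, so these ratios are not independent.

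Levels of nuclear subunits, per length, differed by complex and much less by group. Median TPM was 128, 145, 150 and 153 for 36 complex I subunits, 129, 136, 165 and 157 for the 4 of complex II, 239.5, 240.1, 224 and 221 for 8 of complex III, 277, 267, 253 and 297 for 17 of complex IV and 473, 473, 461 and 505 for 15 of complex V. Over all nuclear members Atp5b had the highest mean, followed by Cox6b1 and Atp5a1. In complex I, Ndufa3 (359, 366, 432 and 498 TPM) led, with Ndufa7 at 308, 345, 331 and 345 TPM and Ndufab1, an acyl carrier protein, at 254, 254, 265 and 221 TPM. In complex III, Uqcr10 was at 262, 315, 301 and 320.4 TPM and Uqcrb at 280.3, 272, 257 and 306 TPM. Complex IV was led by Cox6b1 (652, 687, 689 and 820.1 TPM), Cox4i1 (641, 687, 631 and 549.7 TPM) and Ndufa4 (530.2, 546, 619 and 733 TPM). Cox4i1 is overlapped on the same strand by the gene model Gm20388 (34.3, 41.05, 47.3 and 22.3 TPM), and their reads may be divided between them. Whole gene spans also overlap on the same strand for Atp5o, with Cryzl1 (47.4, 49.6, 57.5 and 56.5 TPM) and Donson (20.9, 20.6, 28.0 and 21.0 TPM). The same holds for Ndufa13 with Yjefn3 (3.2, 4.45, 3.97 and 3.05 TPM), and for Ndufb2 and Ndufc2 with gene models at or below 1.25 TPM.

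The common isoforms of complex IV dominated over the tissue-specific ones. Cox4i2, the isoform known from lung and oxygen-sensing cells, was at 21.9, 22.6, 10.5 and 7.35 TPM, or 3.31, 3.18, 1.64 and 1.32% of its sum with Cox4i1, higher in ectoderm than in mesenchyme in both genotypes. Cox6b2, best known from testis, was at 61.8, 69.7, 52.1 and 49.4 TPM, or 8.65, 9.21, 7.03 and 5.68% of its sum with Cox6b1. The muscle and heart isoform Cox7a1 was at 3.92, 4.31, 3.73 and 3.32 TPM beside Cox7a2 at 245, 248, 253 and 302 TPM. The other muscle and heart isoform, Cox6a2, was at 0.08, 0.14, 0.87 and 1.2 TPM beside Cox6a1 at 229, 264, 283 and 239 TPM. Cox6a2 passed the 1 TPM limit only through KO mesenchyme, so its order over the groups is a description, and Cox7a1 was nearly level. Cox7a2l, a factor that joins complexes III and IV, was at 306, 318, 209 and 234 TPM, higher in ectoderm (log2 ratio 0.54 in WT). Cox5a was at 237, 213, 192 and 161 TPM and also higher in ectoderm (0.30 in WT).

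A set of 3 genes encodes the same mature c subunit of the ATP synthase ring, and their balance differed between groups while their sum was nearly level. The sum was 1219, 1268, 1286 and 1192 TPM. Atp5g1 took 25, 23.6, 25.4 and 22.2% of it, Atp5g2 27.5, 32.7, 32.9 and 42.4% and Atp5g3 47.6, 43.7, 41.7 and 35.5%. Atp5g3 led in both ectoderm groups and in WT mesenchyme, and Atp5g2 led in KO mesenchyme, without the copy described next. Atp5g2 has a near copy, Gm10175, that holds 37.5% of its 31-base words and was at 240.5, 211, 216 and 184 TPM. With the copy added Atp5g2 was at 575, 626, 639 and 689.7 TPM, beside Atp5g3 at 579.9, 554, 536 and 423 TPM, so that Atp5g2 then led in KO ectoderm and WT mesenchyme too. The KO to WT ratio of Atp5g2 thereby went from 0.31 to 0.12 in ectoderm and from 0.25 to 0.11 in mesenchyme.

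**Figure D5:**
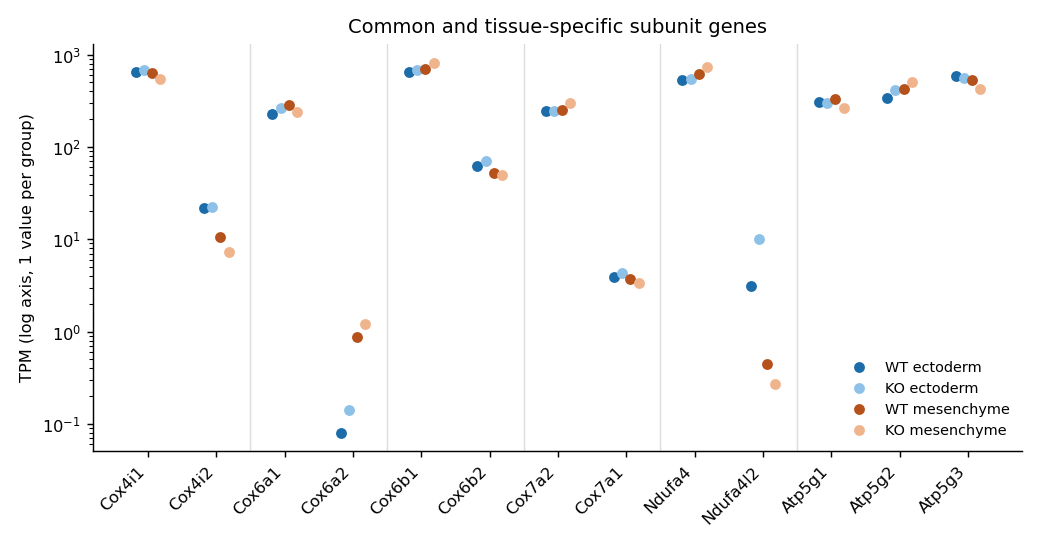
TPM on a log axis (1 point per group) of the common and tissue-specific isoforms of complex IV subunits and of the 3 c subunit genes. The tissue-specific isoforms lie below their common partners in all 4 groups, and Ndufa4l2 spans from 0.27 TPM in KO mesenchyme to 10.1 TPM in KO ectoderm.

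Other pseudogene copies of nuclear members at 1 TPM or more, beside the member Atp5l-ps1, were those of Atp5l, Ndufs5, Uqcrb, Atp5h and Ndufa12. Gm10221, which shares 54.3% of the words of Atp5l, was at 93.2, 41.3, 23.7 and 58.8 TPM, and the ratio of Atp5l in ectoderm went from 0.13 to -0.02 when it was added. BC002163, which shares 26.5% of the words of the complex I subunit Ndufs5, was at 10.9, 1.4, 10.4 and 0.25 TPM and so was low in both KO groups, while Ndufs5 itself was at 125, 136, 139 and 143 TPM. The copies of Uqcrb, Atp5h and Ndufa12 stayed at or below 3.04 TPM.

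Promoters were examined because nuclear respiratory chain genes are known targets of NRF1 and of GABPA, an ETS factor. RefSeq promoter windows on GRCm38, from 250 bases before to 50 after the start, were matched by symbol for 72 of the 90 nuclear members. The NRF1 palindrome, GCGCA followed by TGCGC, was found on either strand in 7 of the 72 (9.72%), in 1.07% of all 27025 genes with such a window and in 2.18% of the 10984 of them at 1 TPM or more. The looser form, GCGCA, any base and GCGC, which includes the palindrome, was in 19 (26.4%), against 5.19% and 10.7%. The ETS motif CCGGAAG was in 18 (25%), against 9.93% and 18.5%, and its longer form CCGGAAGT, which it includes, in 5 (6.94%), against 4.31% and 8.34%. A match is a description of letters and not of binding. The palindrome is shown in capitals for the 3 members with the highest mean TPM among 5 that hold it before the start, and 1 chromosome was left out of this choice. It ends 40 bases before the start in Atp5k, 32 in Atp5g2 and 152 in Cox6a1.
Atp5k (chr5:108434415-108434474, minus strand): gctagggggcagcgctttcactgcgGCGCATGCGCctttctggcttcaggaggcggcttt
Atp5g2 (chr15:102671055-102671114, minus strand): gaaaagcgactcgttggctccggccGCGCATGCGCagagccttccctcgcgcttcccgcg
Cox6a1 (chr5:115349086-115349145, minus strand): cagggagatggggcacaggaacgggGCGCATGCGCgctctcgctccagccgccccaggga

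The values of these 3 genes in KO against WT mesenchyme were at log2 ratios of 0.29 for Atp5k, 0.25 for Atp5g2 and -0.24 for Cox6a1, and with the GC trend subtracted at 0.64, 0.69 and 0.26. Nrf1 itself was level at 54.2, 54.5, 54.9 and 49.1 TPM, as was Gabpa at 49.5, 49.02, 46.7 and 53.8 TPM. Ppargc1a, a coactivator of mitochondrial biogenesis, was low throughout, at 3.51, 3.91, 1.91 and 2.23 TPM. The list of 9 nuclear regulators that holds these genes had medians of 0.01 in ectoderm, with no member 1.5-fold apart, and -0.19 in mesenchyme, where Myc was lower (20.3, 24.3, 22.1 and 12.1 TPM). The GC trend was not subtracted from the values of this list. The medians of all genes were 0.06 and -0.11. In ectoderm 5.13% of all genes were 1.5-fold higher and 0.467% lower, and in mesenchyme 2.53% and 12.5%.

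For the genes that make and read mitochondrial RNA, counts are of genes 1.5-fold apart between KO and WT. All ratios here are on the deposited scale, without the GC trend subtracted. Of all genes, 5.13% were higher by that much and 0.467% lower in ectoderm, and 2.53% and 12.5% in mesenchyme. The medians of all genes were 0.06 in ectoderm and -0.11 in mesenchyme. Tfam, which packages mitochondrial DNA and starts its transcription, was at 88.4, 90.1, 78.2 and 77.3 TPM. Polrmt, the mitochondrial RNA polymerase, was at 27.3, 27.3, 40.5 and 21.9 TPM and was the only gene past 1.5-fold in a list of 14 for transcription and replication, with a log2 ratio of -0.86 in mesenchyme. The medians of that list were -0.01 in ectoderm and 0.02 in mesenchyme. For 16 RNA processing and stability genes they were -0.03 and -0.08 (0 and 1 lower), and for 80 mitochondrial ribosomal proteins 0.06 (1 higher) and -0.05 (2 lower). The 17 mitochondrial aminoacyl-tRNA synthetases had medians of -0.01 (1 lower) and -0.21 (3 lower). Lars2, the leucyl member, was the one that was lower in ectoderm, at 1366, 632, 342 and 201 TPM, with KO below WT in both layers and ectoderm above mesenchyme in both genotypes.

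Genes that feed or complete the chain are given next, beside medians of all genes of 0.06 in ectoderm and -0.11 in mesenchyme. Their ratios are on the deposited scale, without the GC trend subtracted. Of all genes, 5.13% were 1.5-fold higher and 0.467% lower in ectoderm, and 2.53% and 12.5% in mesenchyme. Cytochrome c (Cycs) was at 35.4, 32.9, 35.7 and 41.8 TPM, and Cyc1, the cytochrome of complex III that passes electrons to it, at 182, 177, 181 and 122 TPM, lower in KO mesenchyme (-0.56), as Uqcrc1 was. With the inhibitor Atpif1 and the subunit Usmg5 these formed a list of 4 with medians of -0.06 in ectoderm and 0.29 in mesenchyme, none 1.5-fold apart. The medians in ectoderm and mesenchyme were 0.02 and -0.27 for 13 ubiquinone synthesis genes, 0.02 and -0.04 for 30 assembly genes of complexes II to V and 0.02 and 0.00 for 7 further complex I assembly genes, with no gene of these lists 1.5-fold apart. For 13 citric acid cycle genes they were 0.00 and -0.12, and Ogdh was lower in KO mesenchyme (65.3, 65.4, 87.8 and 43.1 TPM). Glycolysis, with 16 genes, had medians of 0.20 in ectoderm (none 1.5-fold apart) and -0.15 in mesenchyme (2 lower). The 78 cytosolic ribosomal proteins had 0.10 (none 1.5-fold apart) and 0.26 (3 higher and 1 lower).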

How the data were processed

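Total RNA was made into libraries by standard Illumina methods, per the labels, which do not name poly(A) selection or strandedness. The deposited values are TPM, 1 column per group, as deposited by the authors. The submitters' processing notes name STAR 2.5.2a, kallisto 0.43.0 and the build mm10. Not given in the sources used here: which tool made the values, the annotation, and how 4 libraries became 1 value. Depth is therefore unknown, and the planned limma test was not run, since it needs values per library.

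Every value column was mapped to a group. Of 30391 rows, 103 symbols stood in several rows, none of them a member. Log2 ratios used a pseudocount of 1 TPM, and every gene at 1 TPM or more in any group (15218) formed the background. GC content and length of a gene are medians over its protein-coding transcripts, or over all its transcripts where none is protein-coding. Copies were found by 31-base words (at least 20% shared), and all of these used GENCODE M21 on GRCm38. They were computed in Python 3.11.15 with numpy 2.4.6, pandas 2.3.3 and statsmodels 0.14.6, and figures were drawn with matplotlib 3.10.9. GC and length trends were smoothed by lowess (fraction 0.3) over genes averaging 5 TPM or more and subtracted. The scripts were tested on simulated data. Promoter windows are from RefSeq GRCm38.p6. Members on chromosome 18 were left out when promoters to show were chosen. Mitochondrial rRNA and tRNA genes were not analysed here.

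Members, gene lists and the rule for named genes were chosen with earlier results of these data known. The rule names the mitochondrial genes, the 3 most abundant nuclear members per complex, the 5 highest and 5 lowest per comparison, members 1.5-fold apart, isoforms with their partners, c subunit genes and 8 related genes. Other names were chosen after their values were seen. Alternatives were a pseudocount of 0.1, filters, rescaling, quantile normalization, GC and length trends, and copies added.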

Additional observations from a re-analysis of the deposited data

Results flagged for a closer look

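Of the members, 2 had KO to WT differences of at least 1.2-fold that pointed in opposite directions in the layers, and these differences between layers were not tested, as each rests on 1 value per group. The ratio of mt-Atp6 was -0.38 in ectoderm and 0.36 in mesenchyme, a difference of -0.742. With its chromosome 1 copy Gm10925 added, the ratios were 0.05 and 0.62. The ratio of the pseudogene Atp5l-ps1 was 0.49 in ectoderm and -0.68 in mesenchyme, a difference of 1.176, at levels that reached 1.36 TPM at most.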

How the results depend on the processing

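No paired analysis was possible because the table holds 1 value per group, and for the same reason no library could be left out. A shift of a median log2 ratio by over 0.1 was counted as a change. With a pseudocount of 0.1 TPM, 2 nuclear members were 1.5-fold higher in KO than in WT ectoderm. Over genes averaging 5 TPM or more the number was 0, and between the WT layers 1 nuclear member was higher and 0 lower, and between the KO layers 0 lower. Quantile normalization, which levels the top-ranked genes by construction, gave KO to WT mesenchyme medians of 0.162 (nuclear) and 0.079 (mitochondrial), a difference of -0.083, and 1 nuclear member 1.5-fold higher. Between the KO layers it gave a mitochondrial median of 0.0, a difference of 0.145 and 2 nuclear members lower. With the GC trend subtracted, the mesenchyme medians were 0.262 and 0.085, the difference -0.177, and 5 nuclear members were higher and 1 lower. Of all 15096 genes with a GC value, 734 were higher and 367 lower there. The WT layers then had a nuclear median of 0.08 and a difference of -0.087, and the KO layers a mitochondrial median of -0.132, a difference of 0.036, 2 nuclear members higher and 4 lower. Between the KO layers 2098 of 15096 genes were then higher and 2383 lower. With the length trend subtracted, the mitochondrial median in mesenchyme was 0.494 and the nuclear median between the WT layers 0.043. With both trends, mesenchyme had a mitochondrial median of -0.03, a difference of -0.155, 1 nuclear member lower and mt-Nd3 at -0.03, a reversal. The WT layers then had 0.043 (nuclear), -0.037 (mitochondrial) and a difference of -0.08, and the KO layers a mitochondrial median of -0.022, a difference of 0.08, 2 nuclear members higher and 2 lower. Adding the chromosome 1 copies, an alternative chosen after the data were seen, gave a mitochondrial median of -0.327 and a difference of -0.223 between the KO layers, and shares of all TPM of 9.417%, 9.281%, 8.077% and 11.64%. Quantile normalization and the GC trend moved the median of all genes by 0.12 and 0.14 in mesenchyme and by 0.16 and 0.13 between the WT layers. With no filter, with rescaling to equal totals, with repeated symbols added up or with near nuclear copies added, no median of the members in a KO to WT or layer comparison moved by more than 0.1, and no count of nuclear members 1.5-fold apart moved by over 1.5 times. Rescaling did move counts above 0: in KO against WT ectoderm from 7 to 2 mitochondrial and from 63 to 37 nuclear members, and between the WT layers from 31 to 50 nuclear members. Counts of all genes above 0 moved as well. They went from 9972 of 15218 to 7535 of 15200 in ectoderm and from 5686 to 6749 between the WT layers. The causes of these shifts were not tested. Shares without rRNA and tRNA genes were not run.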
